A study of Homo sapiens with 9 samples.

Results

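Genes of the hypoxia response and of glycolysis were followed across 2 esophageal squamous cell carcinoma lines. The set is a list of 39 genes named by symbol, all of which were found by Ensembl identifier in both count tables, out of 66338 identifiers listed in 1 table or both. It holds 14 regulators and non-glycolytic targets of the hypoxia-inducible factors (HIFs) and 25 genes of glucose uptake, glycolysis and the fate of pyruvate and lactate, and the 14 were set against the 25. Polyadenylated RNA was sequenced from Kyse150 and TE11 cells carrying lentiviral shRNA, either a control (shNC) or one against KDM2A, a demethylase of histone H3 that binds unmethylated CpG-rich DNA. The Kyse150 groups hold 2 control and 2 knockdown libraries, and the TE11 groups hold 3 control libraries and 2 that carry the knockdown label. All groups shared 1 culture protocol, RPMI medium with fetal bovine serum, and no low-oxygen culture is named. The labels name no further shRNA, call replicates independent without saying what was repeated, and speak of 3 replicates where 3 of the groups here have 2 libraries. The p-values therefore rest on the spread among libraries of a group, part of which may be technical.

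Gene counts came to 6052883 to 7167055 per Kyse150 library and 8457767 to 12073098 per TE11 library. KDM2A (ENSG00000173120, chr11:67119269-67258087 on GRCh38), the targeted gene, was read at 169 and 171 CPM, the count after scaling for depth, in the Kyse150 controls against 104 and 102 in the knockdowns, a fall to 0.611 of control (log2 fold change -0.71, SE 0.0707, edgeR quasi-likelihood adjusted p = 3.87e-09). In the TE11 controls it stood at 124, 121 and 124 CPM, and at 132 and 146 in those labelled knockdown (log2 fold change 0.16, SE 0.0698, edgeR adjusted p = 0.0335). The target was therefore no lower under the TE11 knockdown label than in its controls. That small rise lost its call without TE11 control replicate 2 (0.13, edgeR adjusted p = 0.0772) or 3 (0.15, edgeR adjusted p = 0.0969) and without labelled knockdown replicate 2 (0.10, edgeR adjusted p = 0.398). It was also lost with DESeq2 (adjusted p = 0.0739) and, by edgeR, under upper-quartile scaling (adjusted p = 0.185), with no filter on low counts (adjusted p = 0.0546) and with the replicate block (adjusted p = 0.0838). Every direction given for TE11 is therefore between libraries as labelled. Leaving out both of these libraries leaves no TE11 comparison, and the Kyse150 comparison was fitted without them.

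The 10 squamous epithelial markers had a summed level of 1926 to 2100 CPM in Kyse150 and 4575 to 5038 in the TE11 controls. In the libraries labelled TE11 knockdown it was 1913 to 1961 CPM. SOX2 was near 0 outside the TE11 controls, but the markers did not all move alike. By edgeR (adjusted p under 0.05) 3 were higher and 7 lower of 10 in TE11, and 4 higher and 1 lower of 9 tested in Kyse150. All genes gave 35.9% higher and 42.2% lower in TE11, and 24.8% and 23.3% in Kyse150. The 7 leukocyte markers summed to at most 4.73 CPM in any library, and PTPRC, CD3E and LYZ stayed near 0. The 8 fibroblast markers summed to 65.2 to 73.5 CPM in the TE11 controls, 3.05 to 4.07 in the libraries labelled knockdown and 6.25 to 11.5 in Kyse150, with COL1A2, DCN and LUM near 0 throughout. The 5 endothelial markers in both tables summed to 69.8 to 78.3 CPM in the TE11 controls, 13.1 to 13.2 in the libraries labelled knockdown, 15.4 to 19.6 in the Kyse150 controls and 37.3 to 37.4 in the Kyse150 knockdowns. The 7 columnar markers summed to 6317 to 6407 CPM in the Kyse150 controls, 7069 to 7620 in the Kyse150 knockdowns, 3679 to 4084 in the TE11 controls and 6439 to 6627 in the libraries labelled TE11 knockdown, with KRT20, CDX2, MUC5AC and TFF1 near 0. The part of these differences in the results was not tested.

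HIFs are dimers of an oxygen-labile alpha subunit, HIF1A or EPAS1, with ARNT. In oxygen, prolyl hydroxylases such as EGLN1 and EGLN3 mark the alpha subunit, and the VHL ubiquitin ligase directs its degradation, so that much of HIF control acts on protein and is not read by RNA sequencing. A stabilised HIF binds the core ACGTG or GCGTG near its targets, which serve pH control, vessel growth, mitophagy, glucose uptake and nearly every step from glucose to lactate. Many cancers run glycolysis at a high rate in the presence of oxygen as well.

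Promoter windows are shown for 5 members called in opposite directions in the lines. EPAS1, ENO2 and ALDOC were called higher in Kyse150 and lower in TE11, and ADM and LDHA lower in Kyse150 and higher in TE11. Members called in the same direction in both lines are not shown. ALDOC passed the filter on low counts in TE11 through the controls, where it was high, so that its fall there followed from the filter. The sequences are the 250 bases before a RefSeq start site on GRCh38.p14, 5′ to 3′ on the strand of the gene, for EPAS1 (chr2:46297157-46297406, forward strand), ENO2 (chr12:6914330-6914579, forward strand), ALDOC (chr17:28576896-28577145, reverse strand), ADM (chr11:10304823-10305072, forward strand) and LDHA (chr11:18394313-18394562, forward strand). Capitals mark the core ACGTG or GCGTG on either strand (CACGT or CACGC when read on the other), and overlapping matches such as CACGTG, which is also an E-box, count as 1 stretch.
EPAS1: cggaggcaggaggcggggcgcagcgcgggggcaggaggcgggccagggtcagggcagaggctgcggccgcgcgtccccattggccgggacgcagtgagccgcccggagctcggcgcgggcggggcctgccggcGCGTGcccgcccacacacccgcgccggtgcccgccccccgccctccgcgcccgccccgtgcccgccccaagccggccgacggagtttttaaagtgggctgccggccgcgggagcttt
ENO2: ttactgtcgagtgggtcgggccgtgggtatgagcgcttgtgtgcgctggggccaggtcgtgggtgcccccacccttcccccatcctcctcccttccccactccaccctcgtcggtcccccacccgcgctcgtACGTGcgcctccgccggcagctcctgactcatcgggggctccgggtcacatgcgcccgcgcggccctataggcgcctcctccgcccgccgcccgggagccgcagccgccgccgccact
ALDOC: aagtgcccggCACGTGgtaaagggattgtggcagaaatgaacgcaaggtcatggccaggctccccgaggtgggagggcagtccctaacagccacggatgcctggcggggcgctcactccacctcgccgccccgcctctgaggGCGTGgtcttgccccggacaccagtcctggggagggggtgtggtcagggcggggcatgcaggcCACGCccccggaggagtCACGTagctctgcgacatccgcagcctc
ADM: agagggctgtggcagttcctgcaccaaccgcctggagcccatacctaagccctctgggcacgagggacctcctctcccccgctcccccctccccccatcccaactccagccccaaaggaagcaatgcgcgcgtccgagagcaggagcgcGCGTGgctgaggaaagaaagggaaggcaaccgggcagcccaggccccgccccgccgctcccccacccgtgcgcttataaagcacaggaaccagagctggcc
LDHA: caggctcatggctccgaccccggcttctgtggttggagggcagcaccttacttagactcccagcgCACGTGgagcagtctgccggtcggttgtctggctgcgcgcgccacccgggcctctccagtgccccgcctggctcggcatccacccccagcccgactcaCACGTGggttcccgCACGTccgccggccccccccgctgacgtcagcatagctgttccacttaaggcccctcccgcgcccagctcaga
EPAS1, ENO2 and ADM each held 1 stretch, starting at positions -117, -118 and -101 from the start site. ALDOC held 4 stretches, at -240, -108, -45 and -28, and LDHA held 3, at -185, -87 and -73. RefSeq windows reaching a further 50 bases past the start were matched to 33 of the 39 members, without VHL, SLC16A1, SLC2A3, NDRG1, VEGFA and BNIP3L. A core was found in 41 of their 60 windows (68.3%), against 48.4% of all 35116 windows of the same length. Members had unequal numbers of windows, with 7 each for HK1 and PFKM and 5 for SLC16A3, and such members weigh more in that share. The median number of CG pairs was 27.5 in the members' windows and 14.0 in all windows. The core itself contains CG, and the part of base composition in that share was not tested. The members shown were chosen after their windows had been seen, and EGLN3 and PGAM1 had no such core in theirs. Members called higher in both lines had a core in 4 of 11 windows (36.4%), and those called lower in both in 3 of 4. Members higher in Kyse150 and lower in TE11 had one in 3 of 3 windows, and those with the reverse pattern in 6 of 8. A match is a description of letters, not a bound site.

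In Kyse150, 9 of the 36 members tested were higher in the knockdowns and 12 lower, and the median log2 fold change was 0.04. Of all 14060 genes tested, 24.8% were called higher and 23.3% lower (edgeR, adjusted p under 0.05), with a median of 0.002, against 25% and 33.3% of the members tested. NDRG1, SLC2A3, EPAS1 and ENO2 each more than doubled, and ADM fell 2.66-fold. The falls of the other members, apart from ANKRD37, went no deeper than that of TPI1, to 0.667 of control. ANGPTL4, EGLN3 and CA12 did not pass the filter on low counts in Kyse150.

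In TE11, 13 of 38 members were higher and 21 lower in the libraries labelled knockdown, with a median log2 fold change of -0.39. Of all 16453 genes tested, 35.9% were called higher and 42.2% lower, with a median of -0.09, and 78.1% were called in either direction. EGLN3, CA12 and ALDOC passed the filter on low counts through the TE11 controls, where they were high, so that a fall followed from the filter. Without them 13 of 35 members were higher (37.1%) and 18 lower (51.4%), with a median of -0.36. They are left out of the class counts here as well. Of the other 11 HIF regulators and non-glycolytic targets tested, 10 were lower and 1 higher, with a median of -1.82. Of the other 24 glucose and lactate genes 12 were higher and 8 lower, with a median of 0.14. The 24 include ALDOA and LDHB, which were low in every TE11 library. Without these the median over 22 genes was 0.21. In RNA of whole cultures, less RNA per cell and fewer expressing cells cannot be told apart. In Kyse150 3 of 11 HIF genes rose and 3 fell (median 0.19). Of the 24 glucose and lactate genes without ALDOC, 5 rose there and 9 fell (median -0.04).

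**Figure D1:**
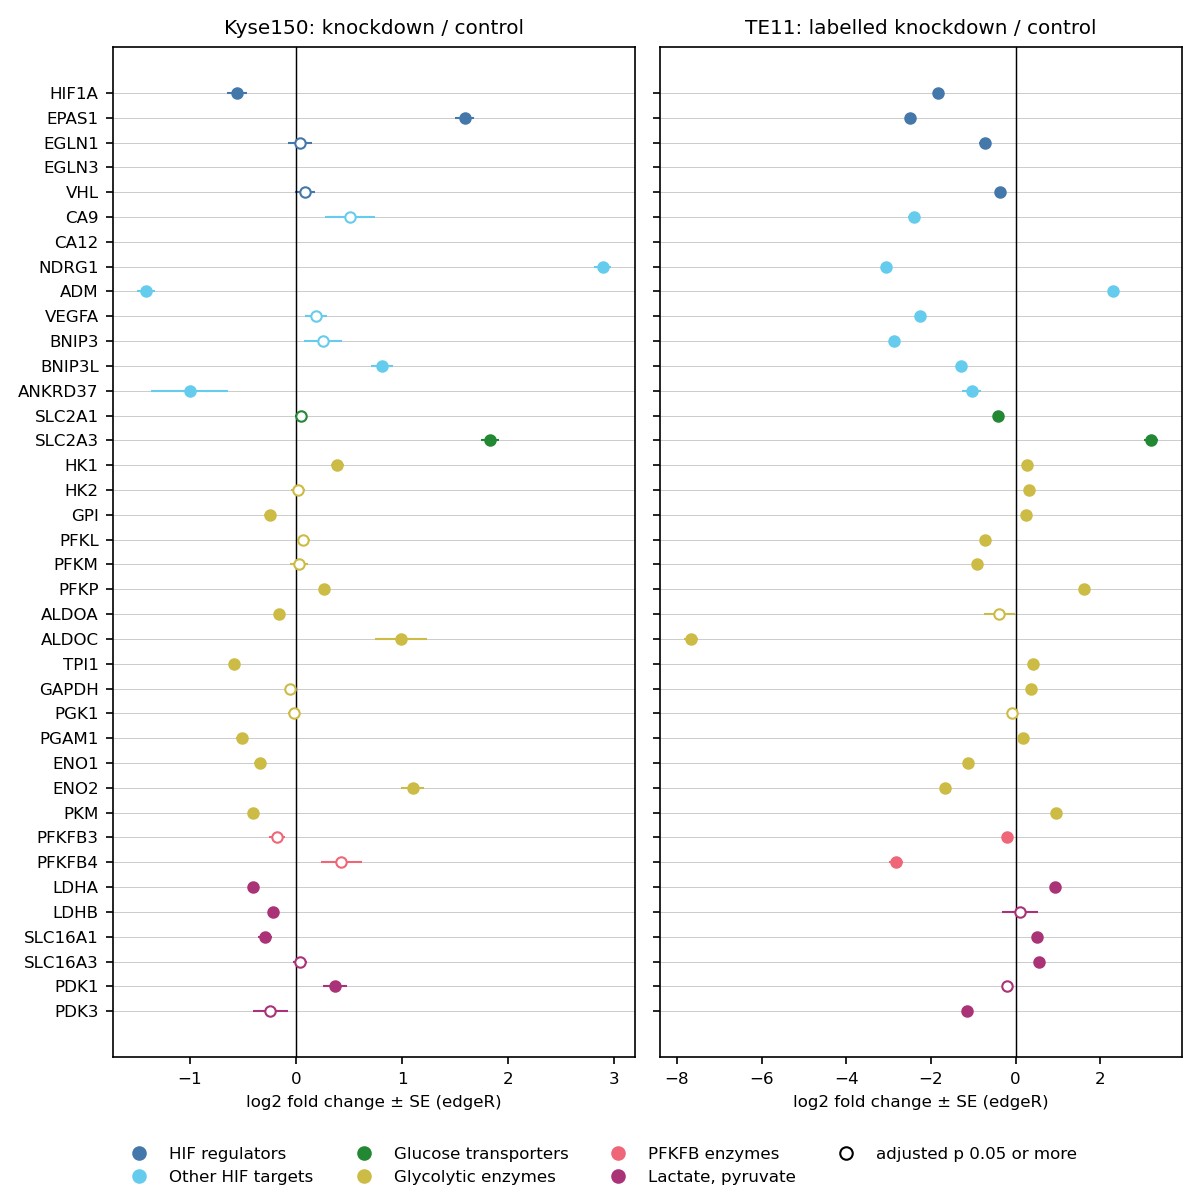
Log2 fold change of each tested member (points) with its standard error (bars) from edgeR, in Kyse150 (left) and TE11 as labelled (right), on separate horizontal scales and coloured by class, where open points have an adjusted p of 0.05 or more. EGLN3 and CA12 are left blank because their knockdown libraries hold 0 and 1 counts in TE11. ALDOC is plotted, but its TE11 fall followed from the filter on low counts. In TE11 10 of the 11 HIF regulators and other targets plotted were lower, and glycolytic genes lie on both sides of 0.

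Among the regulators, the 2 alpha subunits moved apart in Kyse150 and fell together in TE11. HIF1A (ENSG00000100644, chr14:61695513-61748259) was read at 91.5 and 85.1 CPM in the Kyse150 controls against 54.9 and 65.6 in the knockdowns, and at 542, 606 and 564 in the TE11 controls and 157 and 169.6 in the libraries labelled knockdown. The groups did not overlap in either line. HIF1A fell to 0.685 of control in Kyse150 (log2 SE 0.0934, edgeR adjusted p = 2.31e-05) and to 0.283 in TE11 (log2 SE 0.0658, edgeR adjusted p = 8.82e-28). The antisense gene HIF1A-AS1 held 57 to 71 counts in the Kyse150 controls and 912 to 1030 in the TE11 controls. Whether the counting used strand is not known here, so reads of a gene and its antisense partner cannot be told apart.

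EPAS1 (ENSG00000116016, chr2:46293667-46386703), which shares many targets with HIF1A, stood at 41.6 and 41.1 CPM in the Kyse150 controls against 129 and 119 in the knockdowns. In TE11 it stood at 162, 146 and 153 CPM in the controls and at 27.3 and 28.0 in the libraries labelled knockdown. It was thus high in the Kyse150 knockdowns and the TE11 controls, with no overlap within a line. EPAS1 rose 3.01-fold in Kyse150 (log2 SE 0.088, edgeR adjusted p = 3.1e-14) and fell 5.62-fold in TE11 (log2 SE 0.0878, edgeR adjusted p = 3.24e-28). Per kilobase of transcript, EPAS1 made up 25.7% and 26.8% of the summed HIF1A and EPAS1 level in the Kyse150 controls against 64.1% and 57.9% in the knockdowns. That share was 15.5% to 18.5% in the TE11 controls and 11.7% and 11.1% in the libraries labelled knockdown.

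The oxygen-sensing genes changed little in Kyse150. EGLN1, the main prolyl hydroxylase in normal oxygen, had a log2 change of 0.04 (SE 0.116) and VHL one of 0.09 (SE 0.0955), and neither passed the test. In TE11 EGLN1 fell by 0.72 (SE 0.14) and VHL by 0.36 (SE 0.0874) on the log2 scale. EGLN3 (ENSG00000129521, chr14:33924231-34462774), a hydroxylase that HIF itself induces, held 872, 846 and 833 counts in the TE11 controls, or 79.9, 76.5 and 71.8 CPM, whereas those labelled knockdown had 0 each. It was at least 426-fold lower, taking 3 counts in the knockdown group as the floor. The Kyse150 libraries held 0, 0, 0 and 1 EGLN3 counts.

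The non-glycolytic targets were led by NDRG1 (ENSG00000104419, chr8:133237171-133302022), a stress-induced protein used as a hypoxia marker. NDRG1 was read at 36.2 and 40.9 CPM in the Kyse150 controls against 292 and 275 in the knockdowns, then at 423, 411 and 397 in the TE11 controls and 49.4 and 49.9 in the libraries labelled knockdown. Its low values lay in the Kyse150 controls and the libraries labelled TE11 knockdown. NDRG1 rose 7.4-fold in Kyse150 (log2 SE 0.0801, edgeR adjusted p = 8.74e-21) and fell 8.36-fold in TE11 (log2 SE 0.0743, edgeR adjusted p = 1.65e-34). ADM (ENSG00000148926, chr11:10304680-10307397), the vessel-dilating peptide adrenomedullin, ran the other way. ADM stood at 129 and 146 CPM in the Kyse150 controls against 50.4 and 52.3 in the knockdowns, and at 21.2, 19.4 and 17.9 in the TE11 controls and 89.8 and 105 in the libraries labelled knockdown. ADM fell 2.66-fold in Kyse150 (log2 SE 0.0856, edgeR adjusted p = 2.23e-13) and rose 4.94-fold in TE11 (log2 SE 0.0935, edgeR adjusted p = 7.05e-26). It was the single member of the HIF classes called higher in TE11.

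Of the mitophagy receptors, BNIP3L was called in Kyse150 and BNIP3 was not, and the difference between them was not tested. BNIP3L (ENSG00000104765, chr8:26382898-26505636) was read at 34.8 and 34.1 CPM in the Kyse150 controls against 58.0 and 62.1 in the knockdowns, and at 127, 153 and 146 in the TE11 controls and 59.1 and 58.7 in the libraries labelled knockdown. It rose 1.75-fold in Kyse150 (log2 SE 0.104) and fell 2.44-fold in TE11 (log2 SE 0.0817). BNIP3 (ENSG00000176171, chr10:131966455-131982013) stood at 12.6 and 13.6 CPM in the Kyse150 controls against 17.1 and 14.0 in the knockdowns, a log2 change of 0.26 (SE 0.178, edgeR adjusted p = 0.232) that did not pass. In TE11 BNIP3 fell 7.27-fold (log2 SE 0.107), from 86.7, 88.8 and 86.3 CPM to 11.1 and 13.1.

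VEGFA (ENSG00000112715, chr6:43770184-43786487), the main growth factor of vessels, was read at 45.4 and 39.1 CPM in the Kyse150 controls against 47.9 and 48.2 in the knockdowns, a log2 change of 0.19 (SE 0.107, edgeR adjusted p = 0.138) that did not pass. In TE11 it fell 4.76-fold (log2 SE 0.0948), from 105, 109 and 103 CPM to 24.4 and 20.6. CA9 (ENSG00000107159, chr9:35673856-35681159), a surface carbonic anhydrase that exports acid and is a standard hypoxia marker, stood at 42.5, 42.3 and 43.1 CPM in the TE11 controls and at 8.67 and 7.55 in the libraries labelled knockdown, a fall of 5.32-fold (log2 SE 0.132). In Kyse150 CA9 held 57, 47, 57 and 80 counts in controls and then knockdowns, and its rise of 0.51 on the log2 scale (SE 0.233, edgeR adjusted p = 0.0699) passed only without knockdown replicate 1 (0.79, edgeR adjusted p = 0.00954) or with all libraries in 1 fit (0.50, edgeR adjusted p = 0.0461). The opposite-strand gene ARHGEF39 covers 38.5% of the CA9 exon bases. ARHGEF39 held 465, 431 and 495 counts in the TE11 controls and 157 and 178 in the libraries labelled knockdown. In Kyse150 it held 164 and 195 in the controls against 132 and 149 in the knockdowns. The part of its reads in the CA9 values was not tested.

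The remaining targets were low. CA12 (ENSG00000074410, chr15:63321378-63382161), a related carbonic anhydrase, held 304 counts in the TE11 controls together and 1 in those labelled knockdown, with a ratio of 152 (95% counting interval 27.1 to 6030), and 0 in Kyse150. That count lay in replicate 1, without which the group is at 0. ANKRD37 (ENSG00000186352, chr4:185396021-185400628), a small ankyrin-repeat protein induced by HIF, held 26 and 37 counts in the Kyse150 controls against 12 and 17 in the knockdowns (0.5 of control, log2 SE 0.363, edgeR adjusted p = 0.0242). It was not called without control replicate 2 (-0.71, edgeR adjusted p = 0.235), without knockdown replicate 1 (-0.72, edgeR adjusted p = 0.205) and with DESeq2 (adjusted p = 0.182). In TE11 ANKRD37 held 88, 98 and 95 counts in the controls and 36 and 33 in the libraries labelled knockdown, at 8.06, 8.87 and 8.19 CPM and 4.39 and 3.83 CPM, a fall by 1.04 on the log2 scale (SE 0.216). UFSP2, on the other strand, covers 35.23% of its exon bases. UFSP2 held 72 and 54 counts in the Kyse150 controls against 37 and 43 in the knockdowns. In TE11 it held 377, 388 and 429 in the controls and 87 and 100 in the libraries labelled knockdown. UFSP2 was thus lower in the same libraries as ANKRD37, and the part of its reads in the ANKRD37 values was not tested. ANGPTL4, a secreted inhibitor of lipoprotein lipase, held at most 9 counts in any library and did not pass the filter on low counts.

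**Figure D2:**
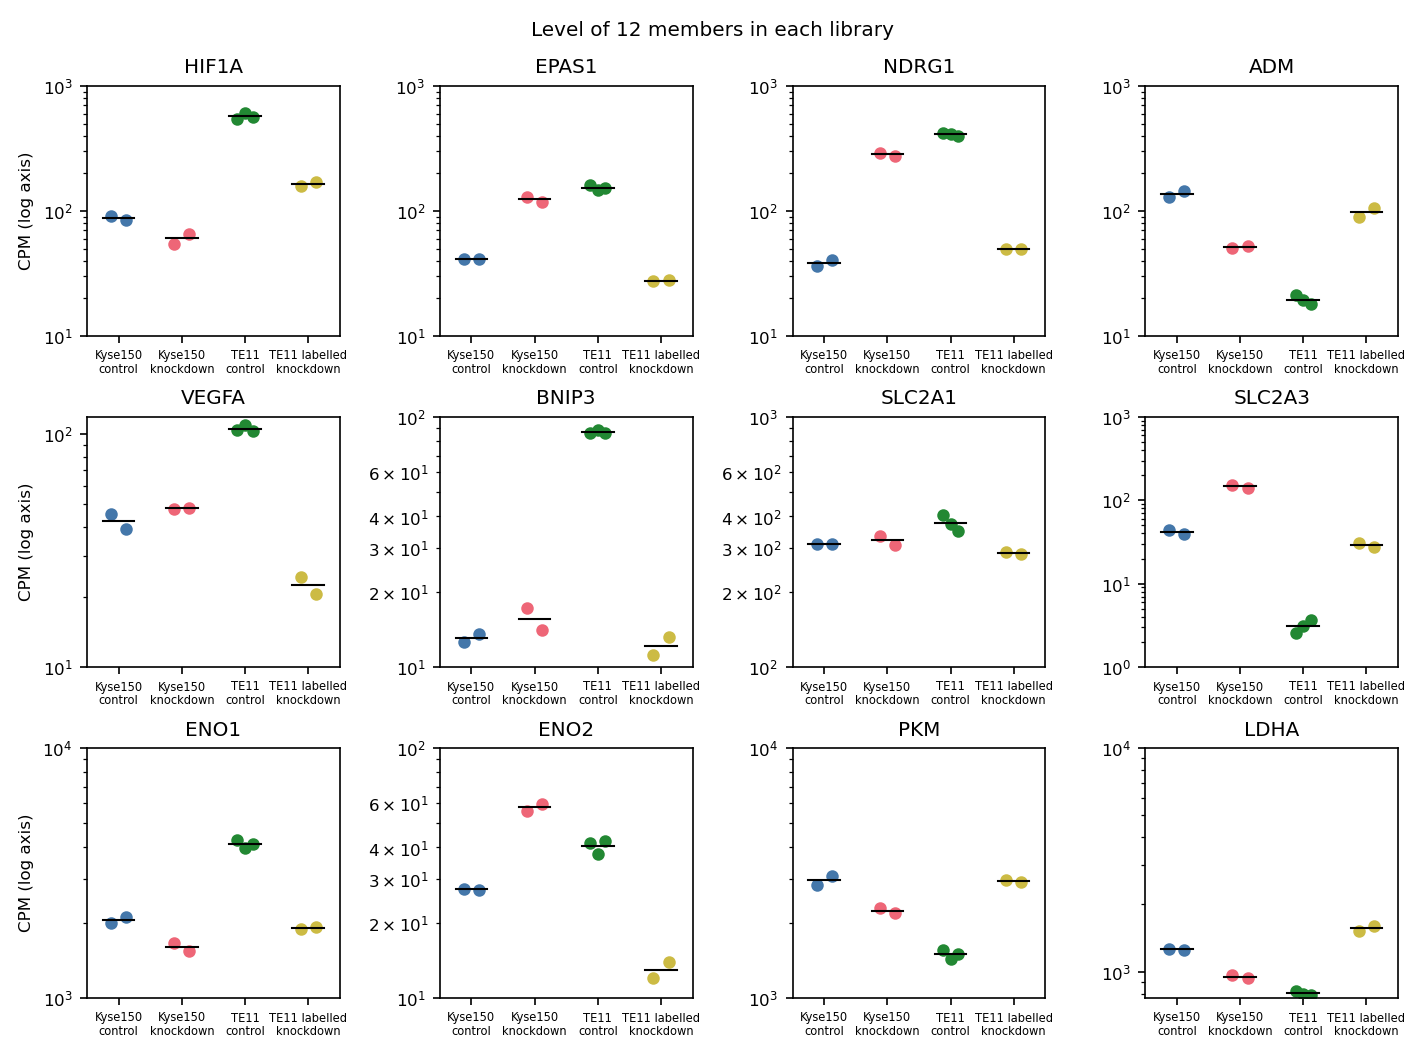
Level of 12 members in each library in CPM on log axes (points) with the group mean (horizontal line), scaled over the 52165 identifiers in both tables. EPAS1, NDRG1 and ENO2 are high in the Kyse150 knockdowns and TE11 controls, and ADM is high in the Kyse150 controls and in the libraries labelled TE11 knockdown.

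Of the glucose transporters, SLC2A3 rose in both lines, and SLC2A1 was called in TE11 alone, where it fell. SLC2A1 (ENSG00000117394, chr1:42925375-42959176), the broadly expressed glucose transporter of epithelial tumours, was read at 311 and 311 CPM in the Kyse150 controls against 333 and 309 in the knockdowns, overlapping groups with a log2 change of 0.05 (SE 0.058) that did not pass (edgeR adjusted p = 0.465). In TE11 it stood at 404, 373 and 351 CPM in the controls and 288 and 284 in the libraries labelled knockdown, a fall by 0.41 on the log2 scale (SE 0.0627). SLC2A3 (ENSG00000059804, chr12:7919230-7936275), a high-affinity transporter, was the member that rose most in TE11. It stood at 43.4 and 39.6 CPM in the Kyse150 controls against 153 and 140.2 in the knockdowns, and at 2.57, 3.08 and 3.62 in the TE11 controls and 30.5 and 27.5 in the libraries labelled knockdown. SLC2A3 rose 3.55-fold in Kyse150 (log2 SE 0.0868, edgeR adjusted p = 1.37e-15) and 9.23-fold in TE11 (log2 SE 0.164, edgeR adjusted p = 4.3e-22). Its share of the summed SLC2A1 and SLC2A3 level per kilobase went from 11.6% and 10.7% to 30.1% and 29.9% in Kyse150, and from 0.591% to 0.958% over the TE11 controls to 9.03% and 8.35%. SLC2A3 and SLC2A14 are near-identical copies, so the split of their reads is uncertain.

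The most abundant members in the Kyse150 controls were glycolytic enzymes. Per kilobase of transcript in the Kyse150 controls, GAPDH was at 3573 CPM, PKM at 1090, TPI1 at 941 and ENO1 at 873, while ENO2 was at 9.61 and ALDOC at 2.49, and among the HIF genes ADM was at 72.7, HIF1A at 22.5 and EPAS1 at 8.01. In Kyse150 4 of the 15 enzymes rose and 6 fell, with a median log2 fold change of -0.02. In TE11 8 rose and 5 fell, the count of falls including ALDOC, with a median of 0.18. The shares over all genes were those given above, 24.8% higher and 23.3% lower in Kyse150 and 35.9% and 42.2% in TE11. GAPDH (ENSG00000111640, chr12:6533927-6538374), which oxidises glyceraldehyde phosphate, was read at 6435 and 6962 CPM in the Kyse150 controls against 6615 and 6289 in the knockdowns, with overlapping groups and a log2 change of -0.05 (SE 0.0472) that did not pass (edgeR adjusted p = 0.447). In TE11 GAPDH rose by 0.36 on the log2 scale (SE 0.0478), from 6008, 5692 and 5857 CPM to 7569 and 7586. The antisense gene AC006064.4, which covers 14.16% of its exon bases, held 18030 to 29421 counts per library.

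The upper steps changed by little in Kyse150. HK1, the constitutive hexokinase, rose by 0.39 (SE 0.0597) there and by 0.28 (SE 0.0624) in TE11 on the log2 scale. HK2, the inducible hexokinase, did not pass in Kyse150 (0.02, SE 0.0683, edgeR adjusted p = 0.808) and rose by 0.33 (SE 0.0689) in TE11. GPI, the isomerase of glucose phosphate, fell by 0.24 (SE 0.0564) in Kyse150 and rose by 0.25 (SE 0.062) in TE11. The phosphofructokinase subunits, which set the committed step, shifted in proportion in TE11. PFKP (ENSG00000067057, chr10:3066333-3137712), the platelet-type subunit, stood at 537 and 571 CPM in the Kyse150 controls against 688 and 638 in the knockdowns, and at 157, 134 and 157 in the TE11 controls and 457 and 469.6 in the libraries labelled knockdown. PFKP rose 1.2-fold in Kyse150 (log2 SE 0.0543) and 3.06-fold in TE11 (log2 SE 0.0645, edgeR adjusted p = 4e-26). The liver-type PFKL and muscle-type PFKM fell by 0.73 (SE 0.0658) and 0.91 (SE 0.0756) in TE11 and did not pass in Kyse150 (0.07 and 0.03). PFKP made up 29.2% to 31.3% of the 3 subunits per kilobase in the TE11 controls and 69.9% and 69.99% in the libraries labelled knockdown, against 67.8% and 68.9% in the Kyse150 controls, with 71.3% and 71.6% in the knockdowns.

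The aldolases need care between the tables. ALDOC (ENSG00000109107, chr17:28573115-28577264), the brain-type aldolase, was read at 4.58 and 5.29 CPM in the Kyse150 controls against 8.57 and 11.0 in the knockdowns, a rise of 1.99-fold (log2 SE 0.244, edgeR adjusted p = 0.00141). In TE11 it stood at 200.5, 173 and 174 CPM in the controls and at 0.732 and 1.05 in the libraries labelled knockdown, 204-fold lower. ALDOC passed the TE11 filter on low counts through the controls, so this fall is a description and not a test result. The TE11 controls were thus high in ALDOC and every other library low. Its antisense gene AC005726.4 held 666 to 784 counts in the TE11 controls and 0 and 1 in the libraries labelled knockdown, and 6 and 8 counts in the Kyse150 controls against 33 and 24 in the knockdowns. ALDOA, the main aldolase of most tissues, stood at 1343 and 1393 CPM in the Kyse150 controls but between 1.47 and 3.02 in all TE11 libraries. LDHB, the heart-type lactate dehydrogenase subunit, likewise stood at 858 and 878 CPM in the Kyse150 controls and at 0.813 to 2.81 in TE11. The TE11 table lists further same-strand genes over them, AC093512.2 over 42.31% of the ALDOA exon bases and AC010197.2 over 33.42% of those of LDHB, and the Kyse150 table does not. For this reason the levels of neither gene were compared between the tables. Within Kyse150 ALDOA fell by 0.16 (SE 0.0486, edgeR adjusted p = 0.00949), which did not pass without control replicate 2 (-0.13, edgeR adjusted p = 0.105) or knockdown replicate 2 (-0.13, edgeR adjusted p = 0.101), and LDHB fell by 0.21 (SE 0.0501).

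Of the enzymes after aldolase, TPI1, PGAM1, ENO1 and PKM fell in Kyse150, and of these TPI1, PGAM1 and PKM rose in TE11. TPI1, which interconverts the triose phosphates, fell by 0.58 (SE 0.0509) in Kyse150 and rose by 0.42 (SE 0.0551) in TE11 on the log2 scale. PGAM1, the phosphoglycerate mutase, fell by 0.51 (SE 0.0552) in Kyse150. In TE11 PGAM1 rose by 0.18 (SE 0.0577, edgeR adjusted p = 0.00518), a call lost without labelled knockdown replicate 2 (0.16, edgeR adjusted p = 0.0838) and under upper-quartile scaling (0.12, edgeR adjusted p = 0.0645). PGK1, a kinase that makes ATP, passed in neither line (-0.02, SE 0.0499, and -0.08, SE 0.0544). PKM (ENSG00000067225, chr15:72199029-72231822), the pyruvate kinase of most tumours, was read at 2843 and 3082 CPM in the Kyse150 controls against 2288 and 2187 in the knockdowns, and at 1559, 1433 and 1501 in the TE11 controls and 2951 and 2900 in the libraries labelled knockdown. The groups lay apart in both lines. PKM fell to 0.76 of control in Kyse150 (log2 SE 0.0487, edgeR adjusted p = 1.61e-07) and rose 1.93-fold in TE11 (log2 SE 0.0514, edgeR adjusted p = 3.36e-21).

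The enolases moved apart in Kyse150 and both fell in TE11. ENO1 (ENSG00000074800, chr1:8861000-8879250), the housekeeping enolase, stood at 1995 and 2101 CPM in the Kyse150 controls against 1664 and 1547 in the knockdowns, and at 4296, 3962 and 4136 in the TE11 controls and 1892 and 1921 in the libraries labelled knockdown. It fell to 0.789 of control in Kyse150 (log2 SE 0.0493) and to 0.456 in TE11 (log2 SE 0.0527, edgeR adjusted p = 1.18e-23). ENO2 (ENSG00000111674, chr12:6913745-6923698), the neuronal enolase, stood at 27.2 and 27.1 CPM in the Kyse150 controls against 55.9 and 59.9 in the knockdowns. ENO2 rose 2.14-fold there (log2 SE 0.109, edgeR adjusted p = 3.88e-09). In TE11 it fell 3.16-fold (log2 SE 0.124), from 41.5, 37.5 and 42.5 CPM to 11.96 and 13.9. ENO2 remained a minor isoform, at 1.06% to 3.11% of the summed ENO1 and ENO2 level per kilobase in Kyse150 and 0.522% to 0.845% in TE11.

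**Figure D3:**
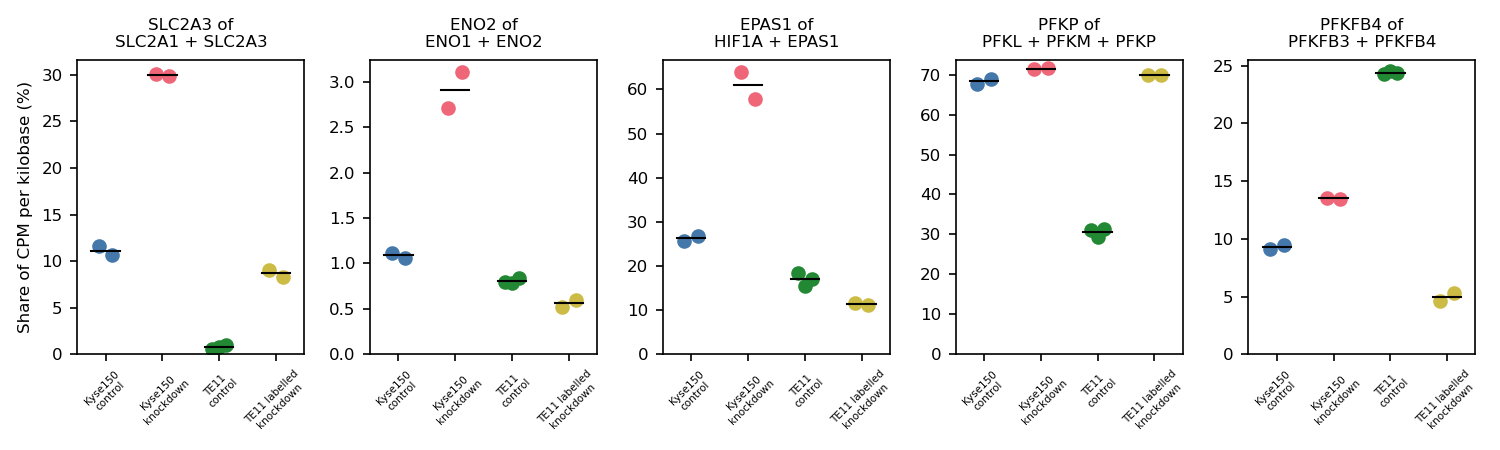
Share of 1 isoform in the summed CPM per kilobase of the related members, in percent, for SLC2A3, ENO2 (with ENO1), EPAS1, PFKP and PFKFB4, in each library (points) with the group mean (line). SLC2A3 goes from 0.591% to 0.958% in the TE11 controls to 8.35% and 9.03% in the libraries labelled knockdown, and PFKP from 29.2% to 31.3% to 69.9% and 69.99%.

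PFKFB3 and PFKFB4 make and break the activator of phosphofructokinase. PFKFB4 (ENSG00000114268, chr3:48517684-48562015), the testis-type enzyme that hypoxia induces, was read at 32.9, 29.04 and 30.1 CPM in the TE11 controls and at 4.03 and 4.65 in the libraries labelled knockdown, a fall of 7.12-fold (log2 SE 0.163, edgeR adjusted p = 3.18e-20). In Kyse150 it stood at 9.30 and 9.71 CPM in the controls against 13.2 and 12.3 in the knockdowns, a log2 change of 0.43 (SE 0.194, edgeR adjusted p = 0.0662) that did not pass. PFKFB3 moved by -0.18 (SE 0.0753, edgeR adjusted p = 0.0545) in Kyse150, which did not pass. In TE11 it fell by 0.21 (SE 0.074, edgeR adjusted p = 0.00913), a call lost without labelled knockdown replicate 1 (-0.20, edgeR adjusted p = 0.0919) or 2 (-0.21, edgeR adjusted p = 0.0753).

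At the exit of the pathway, LDHA and SLC16A1 moved in the same directions as PKM. LDHA (ENSG00000134333, chr11:18394388-18408425), which turns pyruvate into lactate, stood at 1268 and 1253 CPM in the Kyse150 controls against 966 and 937 in the knockdowns, and at 819.9, 797 and 792 in the TE11 controls and 1530 and 1597 in the libraries labelled knockdown. The groups lay apart in both lines. LDHA fell to 0.759 of control in Kyse150 (log2 SE 0.0483, edgeR adjusted p = 1.37e-07) and rose 1.92-fold in TE11 (log2 SE 0.0527, edgeR adjusted p = 1.02e-20). The lactate exporter SLC16A1 fell by 0.29 (SE 0.0679) in Kyse150 and rose by 0.51 (SE 0.0619) in TE11. SLC16A3, the exporter of highly glycolytic cells, did not pass in Kyse150 (0.04, SE 0.069, edgeR adjusted p = 0.626) and rose by 0.56 (SE 0.0755) in TE11.

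The pyruvate dehydrogenase kinases, which hold pyruvate back from the mitochondrion, were each called in a single line. PDK1 rose by 0.37 (SE 0.113, edgeR adjusted p = 0.00828) in Kyse150, which did not pass without control replicate 2 (0.31, edgeR adjusted p = 0.0778), without knockdown replicate 1 (0.34, edgeR adjusted p = 0.063) and with DESeq2 (adjusted p = 0.0909). In TE11 PDK1 did not pass (-0.21, SE 0.104, edgeR adjusted p = 0.0662), but was lower without control replicate 2 (-0.24, edgeR adjusted p = 0.0359), without labelled knockdown replicate 2 (-0.34, edgeR adjusted p = 0.0286) and under upper-quartile scaling (-0.27, edgeR adjusted p = 0.0182). PDK3 (ENSG00000067992, chrX:24465221-24541862) stood at 51.3, 55.8 and 51.7 CPM in the TE11 controls and 24.3 and 24.4 in the libraries labelled knockdown, a fall of 2.2-fold (log2 SE 0.1), and did not pass in Kyse150 (-0.24, SE 0.167, edgeR adjusted p = 0.249).

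Between the lines, 18 of the 36 members tested in both were called in both. EPAS1, NDRG1, BNIP3L, ALDOC and ENO2 were higher in Kyse150 and lower in TE11, a pattern of 13.7% of the 13276 genes tested in both lines. ALDOC is counted there although its TE11 fall followed from the filter on low counts. ADM, GPI, TPI1, PGAM1, PKM, LDHA and SLC16A1 were lower in Kyse150 and higher in TE11, a pattern of 15.2% of genes. SLC2A3, HK1 and PFKP were higher in both (6.47% of genes), and HIF1A, ANKRD37 and ENO1 lower in both (4.69% of genes). The difference of the 2 responses, tested as a contrast in 1 fit of the 9 libraries, was called for 31 of 38 members, against 66.9% of 15895 genes. That count includes EGLN3 and ALDOC. Without EGLN3 and CA12, the TE11 response lay below that of Kyse150 for 9 of 11 HIF regulators and targets and above it for 1 (median difference -2.07 in log2). Without ALDOC, ALDOA and LDHB it lay below for 8 and above for 11 of 22 glucose and lactate genes (median 0.16). The median difference over all genes was -0.063, and 33.1% were called lower and 33.8% higher. For EGLN3 the call rests on 1 Kyse150 count and was lost without Kyse150 knockdown replicate 2 (edgeR adjusted p = 1).

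The levels of the 4 groups were then set side by side, as a description without a test, because the tables differ in their gene annotation. The 36 members used had a mean of 1 CPM or more over all libraries. ALDOA and LDHB were left out after their counts had been seen. Of the 36 members, 32 had a mean in the libraries labelled TE11 knockdown nearer to the Kyse150 controls than to the TE11 controls. Of all 14927 genes in both tables at that level, 64.9% did. The median absolute log2 difference of the members was 0.306 from the Kyse150 controls and 0.963 from the TE11 controls, and over all genes it was 0.381 and 0.664. EGLN1, VHL, GPI and PGK1 were the members nearer to the TE11 controls. The 32 include EGLN3, CA12 and ALDOC. EGLN3 and CA12 reached a mean of 1 CPM only through the TE11 controls, so that their place among the 32 followed from that bound. ALDOC owed most of its mean to the same controls. Among the HIF genes that fell in TE11, NDRG1 came to 49.6 ± 0.29 CPM against 38.5 ± 3.27 (SD, n = 2 each) in the Kyse150 controls, and BNIP3 to 12.12 ± 1.43 against 13.1 ± 0.66 (SD, n = 2 each). CA9 was also near, at 8.11 ± 0.79 against 7.31 ± 0.85 (SD, n = 2 each). HIF1A, at 163.5 ± 8.7 against 88.3 ± 4.47 (SD, n = 2 each), lay between the control groups of both lines. So did BNIP3L, at 58.9 ± 0.28 against 34.5 ± 0.49 (SD, n = 2 each). VEGFA, at 22.5 ± 2.72 against 42.3 ± 4.42, and EPAS1, at 27.7 ± 0.47 against 41.4 ± 0.35 (SD, n = 2 each), lay below both control groups.

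**Figure D4:**
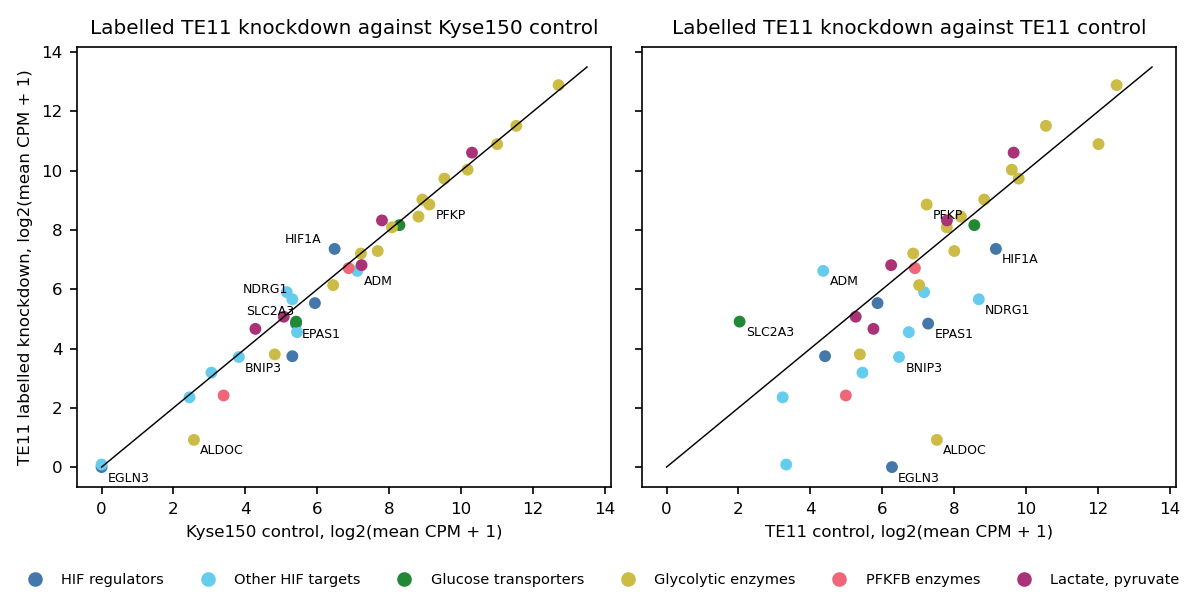
Mean level of 36 members in the libraries labelled TE11 knockdown (vertical axis, log2 of mean CPM plus 1) against the Kyse150 controls (left) and the TE11 controls (right), coloured by class, with the line of equal level and 9 members named. Points lie closer to the line on the left, where 32 of 36 members are nearer. That count includes EGLN3, CA12 and ALDOC, which were high in the TE11 controls alone.

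Other members of the HIF system, from a list of 14 not among the 39, gave 2 higher and 4 lower of 13 tested in Kyse150 (median log2 fold change -0.16) and 7 higher and 5 lower of 13 in TE11 (median 0.18), where all genes gave 24.8% and 23.3% in Kyse150 and 35.9% and 42.2% in TE11. ARNT, the partner of both alpha subunits, rose by 0.42 (SE 0.108) in Kyse150 on the log2 scale and fell 2.82-fold (log2 SE 0.0928) in TE11. CITED2, which competes with HIF for its coactivators, rose by 0.40 (SE 0.0805) in Kyse150. The coactivators EP300 and CREBBP fell by 0.47 (SE 0.0806) and 0.40 (SE 0.0803) in Kyse150, and CREBBP rose by 1.09 (SE 0.0833) in TE11. Of the VHL ligase subunits, ELOC fell by 0.35 (SE 0.0878) in Kyse150 and rose by 0.96 (SE 0.0788) in TE11, CUL2 rose by 1.26 (SE 0.0853) in TE11, and ELOB and RBX1 fell there by 0.44 (SE 0.0722) and 0.48 (SE 0.0885).

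Further hypoxia targets, a list of 30 genes, gave 15 higher and 2 lower of 28 tested in Kyse150, with a median log2 fold change of 0.35, and 4 higher and 23 lower of 29 in TE11, with a median of -1.37. Over all genes 24.8% were higher and 23.3% lower in Kyse150, and 35.9% and 42.2% in TE11. DDIT4, an inhibitor of mTOR, rose by 1.58 (SE 0.0589) in Kyse150 and fell by 2.77 (SE 0.0675) in TE11. CCNG2, a cyclin of arrested cells, rose by 2.21 (SE 0.163) in Kyse150. TFRC, the transferrin receptor, fell by 1.20 (SE 0.0595) in Kyse150, and the glycogen branching enzyme GBE1 fell by 0.53 (SE 0.164), a call lost without Kyse150 control replicate 1 (-0.36, edgeR adjusted p = 0.174) and with DESeq2 (adjusted p = 0.0767). In TE11 the carrier protein IGFBP3 fell by 8.52 (SE 0.12) and the repressor BHLHE40 by 3.09 (SE 0.105), while the dioxygenase JMJD6 and the cytokine MIF rose by 1.04 (SE 0.118) and 0.87 (SE 0.134).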

How the data were processed

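Polyadenylated RNA of 9 libraries was analysed, with groups and replicate numbers from the sample titles. Per gene, the authors deposited raw counts without normalization, in a separate file for each line. Per the submitters' processing notes, bcl2fastq 2.19, HISAT2 2.1.0, HTSeq 0.9.1 and DESeq2 were used, with the builds GRCh37.p13 and GRCh38.p13. Which table used which build, and the strand setting, are not given in the sources used here. Summary rows that name no gene stayed out of library sizes: 42.28% to 44.53% of fragments fell on no gene, 1.846% to 2.724% on more than 1 gene, and 2.94% to 6.781% aligned to more than 1 place.

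The Kyse150 table lists 57820 identifiers (90.52% with a symbol) and that of TE11 lists 60683 (99.96%), 52165 of them in both. Within each line, low genes were removed with filterByExpr (count of at least 10, total of at least 15), TMM scaling was applied, and the whole table was tested with edgeR 4.0.16 (robust quasi-likelihood) in R 4.3.3, with Benjamini-Hochberg adjustment and a threshold of 0.05. The lines were compared by a contrast in 1 fit of the 9 libraries over shared identifiers. Printed CPM values were scaled over shared identifiers of all 9 libraries, and levels between genes were divided by the length of the GENCODE 29 principal transcript. Gene positions are those of GENCODE 29 on GRCh38. A group at 0 was given a bound against 3 counts, and one with 1 to 3 counts an exact 95% interval, both covering counting error only. Scripts were tested on simulated data.

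Values in every library are given for members called in a line with a log2 fold change of 1 or more in size, and for HIF1A, EPAS1, GAPDH, LDHA, PKM, SLC2A1 and KDM2A. Of each further list, up to 3 called genes per direction and line with the smallest p are named, apart from a few not reported here. The members and lists were chosen with earlier results of these data known. The tests were repeated with DESeq2 1.42.0, with RLE or upper-quartile scaling, without a filter or with one on CPM, with a replicate block, with pseudogene counts added, with all libraries in 1 fit, and without each library. Single values are named for some other genes outside that rule, chosen after they were seen.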

Additional observations from a re-analysis of the deposited data

Results flagged for a closer look

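For 30 members with counts in both lines, the response of TE11 minus that of Kyse150 differed from 0 in the contrast of all 9 libraries (edgeR, adjusted p under 0.05), where 12 lay above 0 and 18 below, with the libraries labelled TE11 knockdown taken as labelled. In the same contrast 66.9% of 15895 genes differed. Among the HIF regulators the difference in log2 fold change was -1.25 for HIF1A, -4.06 for EPAS1, -0.74 for EGLN1 and -0.43 for VHL. Among the other HIF targets it was -2.90 for CA9, -5.93 for NDRG1, -2.42 for VEGFA, -3.10 for BNIP3 and -2.07 for BNIP3L, while ADM stood at 3.74. In glucose uptake and the glycolytic enzymes the difference was -0.44 for SLC2A1, -0.77 for PFKL, -0.92 for PFKM, -8.63 for ALDOC, -0.77 for ENO1 and -2.73 for ENO2. That of ALDOC includes a TE11 fall that followed from the filter on low counts. It stood at -3.24 for PFKFB4, -0.55 for PDK1 and -0.88 for PDK3, the kinases that steer glycolysis and pyruvate. Above 0 it was 1.40 for SLC2A3, 0.33 for HK2, 0.51 for GPI, 1.37 for PFKP, 1.03 for TPI1 and 0.43 for GAPDH. At the end of the pathway it was 0.71 for PGAM1, 1.37 for PKM, 1.37 for LDHA, 0.83 for SLC16A1 and 0.54 for SLC16A3. KDM2A itself, the targeted gene, had a difference of 0.90 (SE 0.101): it fell in Kyse150 and did not fall in TE11.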

How the results depend on the processing

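The number of members called stayed within 1.5 times its value under each alternative run, and no called member reversed. Adding the counts of processed pseudogenes changed no member's call. Under the alternatives planned, in Kyse150 the members called ran from 8 to 10 higher and 10 to 13 lower, in TE11 from 12 to 13 higher and 20 to 23 lower, and 30 to 32 differed between the lines. Over all genes DESeq2 called 2156 higher and 2181 lower in Kyse150, against 3490 and 3281 by edgeR. Upper-quartile scaling moved the median difference between the lines over all genes from -0.063 to -0.181, relative to which these differences are read. Deviations of same-numbered libraries from their group means correlated at -0.044 in Kyse150 and at -0.001 and -0.006 in TE11. These values are taken over all genes that passed the filter and cannot show whether libraries were prepared in pairs. With 2 libraries per group, both Kyse150 numbers give the same value. With the replicate block 9 members were higher and 11 lower in Kyse150, 13 and 21 in TE11, 31 differed between the lines, and ALDOA lost its call in Kyse150 (adjusted p = 0.0701 by edgeR with the block). The Kyse150 call of PFKFB3 appeared under RLE scaling (-0.18, edgeR adjusted p = 0.0499) and the CPM filter (-0.18, edgeR adjusted p = 0.048), and the TE11 call of PGK1 under upper-quartile scaling (-0.14, edgeR adjusted p = 0.0233). Between the lines, HK1 was called under upper-quartile scaling (-0.21, edgeR adjusted p = 0.0335) and CA12 with DESeq2 (adjusted p = 0.00692). The count of members nearer to the Kyse150 controls was 32 of 36, and 32 of 38 with ALDOA and LDHB, an alternative chosen after seeing the data. Both counts include EGLN3, CA12 and ALDOC. Leaving these out was also chosen after seeing the data, and gave 18 members lower in TE11. Leaving them out with ALDOA and LDHB, chosen in the same way, gave 29 members that differed between the lines. The filter on low counts left out ANGPTL4 and, in Kyse150, EGLN3 and CA12.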

Other observations

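Other genes of glucose metabolism, a list of 46 outside the 39 members, gave 10 higher and 11 lower of 35 tested in Kyse150 (median log2 fold change -0.01) and 8 higher and 20 lower of 37 in TE11 (median -0.26). Over all genes 24.8% were higher and 23.3% lower in Kyse150, and 35.9% and 42.2% in TE11. LDHD, SLC16A4 and SLC16A7 passed the filter on low counts through the TE11 controls, so that a fall followed from the filter. LDHD and SLC16A4 held 200 and 325 counts in those controls and 0 and 3 in the libraries labelled knockdown. In Kyse150 LDHD passed through the knockdowns, with 26 counts against 3 in the controls. The counts and medians of this list include these genes. In TE11 PGD, an enzyme of the pentose phosphate pathway, fell by 2.40 (SE 0.0665) on the log2 scale. PGLS, of the same pathway, rose by 1.02 (SE 0.105) in Kyse150. PCK2, which makes phosphoenolpyruvate in mitochondria, rose by 1.97 (SE 0.102) and the transporter SLC2A12 by 1.80 (SE 0.234) in Kyse150. TIGAR, which diverts glucose from glycolysis, fell by 0.98 (SE 0.164) in Kyse150 and rose by 2.67 (SE 0.25) in TE11. DLAT, a subunit of pyruvate dehydrogenase, fell by 0.57 (SE 0.0822) and rose by 1.02 (SE 0.0692), and the phosphatase PDP1, which activates that enzyme, fell by 0.54 (SE 0.0748) in Kyse150. SLC16A7, a pyruvate and lactate transporter, held 1308 counts in the TE11 controls and 0 in the libraries labelled knockdown, at least 218-fold lower if 3 counts are taken as the floor. ENO3, the muscle enolase, was 0.71 higher in TE11 (SE 0.0575), but its locus overlaps another abundant gene and its counts are uncertain.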
